A study of Homo sapiens with 8 samples.

Results

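Aminoacyl-tRNA synthetases, the enzymes that load each amino acid onto its transfer RNA (tRNA), were examined in 8 RNA sequencing libraries of ARP1 and H929, human cell lines of multiple myeloma, a cancer of antibody-secreting plasma cells. Members were the genes of a list of synthetases, found by the transcript identifiers of the deposited table, and their transcript values were summed per gene. All 36 listed genes were present among 24351 genes, as 20 cytosolic and 16 mitochondrial enzymes with 174 listed transcripts. The set was selected on the FPKM ratios of the libraries labelled knockdown over their controls, which were known when it was proposed, so that comparison is given as a description and no test is read from it.

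Each line was profiled in 4 genotypes: overexpression of CHEK1, its overexpression control, knockdown of CHEK1, and its knockdown control. CHEK1 encodes checkpoint kinase 1, which halts the cell cycle when DNA is damaged. Each genotype had 1 library per line, so n = 2 per genotype with the lines as replicates, and nothing in the labels names separate cultures, clones, or the way CHEK1 was raised or lowered. The unit was FPKM, fragments per kilobase of transcript scaled by the size of the library, which is comparable between genes because it is per length. Fold changes are log2 ratios of FPKM plus 1, which understate changes of low genes, and counts of genes past 1.5-fold within a line use these ratios, while folds printed beside single genes are plain ratios of FPKM.

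Every cell carries a cytosolic set of synthetases for translation in the cytoplasm, and a second, nuclear-encoded set that is imported into mitochondria to translate the mitochondrial genome. Several cytosolic enzymes are held with the scaffold proteins AIMP1, AIMP2 and EEF1E1 in the multisynthetase complex. The enzymes fall into a pair of structural classes, I and II, by the fold of the catalytic domain. Genes of many cytosolic synthetases are known targets of ATF4, the transcription factor of the amino acid and stress response, which binds a C/EBP-ATF element. Plasma cells secrete large amounts of protein and are known for a high demand on this machinery.

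CHEK1 stood at 114 FPKM in the ARP1 overexpression library, against 78.2 FPKM in its control, and at 107 FPKM in the H929 overexpression library, against 81.6 FPKM in its control. In the libraries labelled knockdown it stood at 51.6 FPKM in ARP1, against 61.0 FPKM in the control, and at 84.8 FPKM in H929, against 80.7 FPKM in the control. In H929, CHEK1 was thus not lower in the library carrying the knockdown label, and both libraries are called by their label throughout. Summed FPKM was 631871 to 693299 per library, the sources used here do not give read depth, and 14905 genes, including all 36 members, passed the filter for testing. The 9 plasma cell markers were all tested and summed to 1634 to 2833 FPKM. Markers of T and NK cells summed to 0.379 to 14.2 FPKM, with CD3D, CD3G and NKG7 at 0 in every library, myeloid markers to 1.21 to 2.89 FPKM, stromal and epithelial markers to 1.59 to 17.1 FPKM, and erythroid markers to 0 to 1.95 FPKM. A larger number of cells of a type and more RNA per cell cannot be told apart in bulk samples.

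Cytosolic synthetases were the more abundant set. Median FPKM over the 8 libraries ran from 29.5 for CARS, the cysteine enzyme, to 191 for WARS, the tryptophan enzyme, and among mitochondrial enzymes from 3.31 for PARS2, which charges proline, to 50.2 for IARS2, which charges isoleucine. After WARS came VARS, the valine enzyme, with a median of 179 FPKM and QARS, the glutamine enzyme, with 146 FPKM. The ranges of these 3 genes over the libraries overlapped, at 128 to 448 FPKM for WARS, 155 to 221 FPKM for VARS and 135 to 224 FPKM for QARS. The order of the leading genes depended on which transcripts were summed: with transcripts of at least 1000 nt alone, VARS came first with a median of 135 FPKM, WARS was 6th with 108 FPKM and QARS 14th with 72.1 FPKM. For QARS, 1 listed transcript of 544 nt, QARS-231, held 46.1% of the gene's FPKM. IARS2 and TARS2, the mitochondrial threonine enzyme with a median of 49.3 FPKM, stood above the cytosolic enzymes FARSB, SARS, DARS and CARS.

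KARS, the lysine enzyme, encodes its cytosolic and its mitochondrial form from the same gene by alternative splicing. KARS-201, which codes for 597 residues as the cytosolic form does, held 82.0% of the gene's FPKM, and KARS-202, with 625 residues as in the mitochondrial form, held 12.9%. KARS-202 ranged from 10.5 FPKM in the H929 library labelled knockdown to 22.5 FPKM in the ARP1 overexpression control.

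In the libraries labelled knockdown most cytosolic genes stood above their controls in both lines, and most mitochondrial genes stood below them, chiefly in ARP1. The median log2 ratio of the 20 cytosolic genes was 0.36 in ARP1 and 0.34 in H929, against -0.03 and 0.00 over all genes tested. Of these genes, 12 were higher in both lines and 4 (FARSA, KARS, RARS and VARS) lower in both, where 27.2% of all genes tested were higher in both lines and 28.9% lower in both. Without transcripts under 300 nt, which change the H929 control of RARS and TARS, the H929 median was 0.41 and 13 cytosolic genes were higher in both lines. The median of the 16 mitochondrial genes was -0.35 in ARP1 and -0.02 in H929. Of these, 11 were lower in both lines and 1, PARS2, was higher in both.

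In ARP1, 6 cytosolic genes stood at least 1.5-fold higher and 1, FARSA, at least 1.5-fold lower, while 0 mitochondrial genes were that much higher and 4 (LARS2, MARS2, NARS2 and YARS2) that much lower. Over all genes tested, 12.4% were at least 1.5-fold higher and 13.5% at least 1.5-fold lower in that pair of libraries. In H929, 6 cytosolic genes were at least 1.5-fold higher, 2 (RARS and TARS, each through 1 short transcript) lower, and 0 mitochondrial genes passed either bound, against 4.72% higher and 4.78% lower over all genes. Without transcripts under 300 nt the H929 counts were 7 cytosolic genes higher, with TARS among them, and 0 lower. By limma, 0 of 36 members were called in this comparison, in which 0.0134% of all genes tested were called. Without adjustment limma put 10 cytosolic genes and 1 mitochondrial gene under 0.05, of 1362 such genes in all, and since this comparison chose the members nothing is read from these counts.

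**Figure D1:**
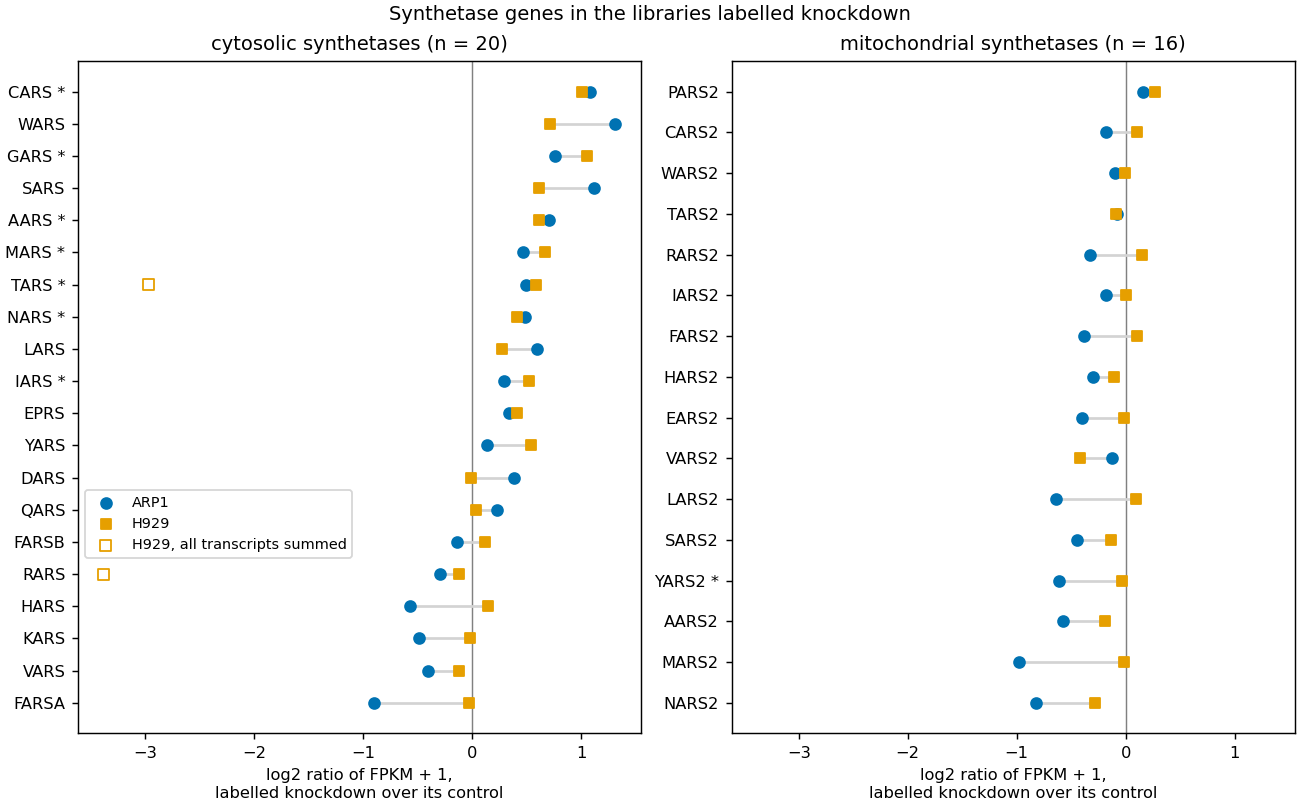
Log2 ratio of FPKM plus 1 (x axis) of the library labelled knockdown over its control for each synthetase (rows), in ARP1 (circles) and H929 (filled squares), summed over transcripts of at least 300 nt. Open squares give RARS and TARS in H929 with all transcripts summed (-3.38 and -2.97), and an asterisk marks genes with the TGATGNAA letters near a start. Most cytosolic genes lie to the right of 0, and most mitochondrial genes to the left in ARP1 and near 0 in H929.

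The sequences around the starts of the synthetase genes were searched for the core letters of the C/EBP-ATF element, which ATF4 binds. Windows of 250 bases before to 50 after each start, from RefSeq on build GRCh38.p14, were found for 30 of 36 members. They were not found for AARS2, DARS, LARS, VARS, VARS2 and YARS. TGATGNAA, searched on both strands, was in a window of 7 of 16 cytosolic genes and of 1 of 14 mitochondrial genes, and of 4.46% of the 27305 genes with a window. Capitals mark the matched letters, read on the gene's own strand, so that TTGCATCA is the reverse complement of TGATGCAA. The stretches are these.
AARS at chr16:70289661-70289718 (minus strand): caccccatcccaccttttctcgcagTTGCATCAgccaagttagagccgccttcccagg
CARS at chr11:3057394-3057450 (minus strand): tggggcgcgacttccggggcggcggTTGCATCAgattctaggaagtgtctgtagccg
GARS at chr7:30594820-30594877 (plus strand): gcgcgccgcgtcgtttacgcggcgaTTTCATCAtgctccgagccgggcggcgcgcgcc
IARS at chr9:92293678-92293735 (minus strand): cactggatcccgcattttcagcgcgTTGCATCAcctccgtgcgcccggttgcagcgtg
MARS at chr12:57488039-57488096 (plus strand): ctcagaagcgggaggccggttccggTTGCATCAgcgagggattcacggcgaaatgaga
NARS at chr18:57621807-57621847 (minus strand): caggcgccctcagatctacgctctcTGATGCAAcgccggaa
TARS at chr5:33440942-33440994 (plus strand): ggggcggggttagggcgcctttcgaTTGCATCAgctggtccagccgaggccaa
YARS2 at chr12:32756062-32756119 (minus strand): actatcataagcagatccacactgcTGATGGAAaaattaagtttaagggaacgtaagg

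In 6 of the 7 cytosolic genes the matched letters were TTGCATCA or its reverse complement, and GARS had TTTCATCA. Counted from the start, with the first transcribed base as 1 and the base before it as -1, they began at -187 in AARS, -33 in GARS, -13 in IARS, -4 in MARS, -2 in CARS, 3 in TARS and 15 in NARS. In YARS2 they began at -197 and read TGATGGAA. A match to 8 letters is a description of these windows and not a site of binding.

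Of the 7 cytosolic genes with the letters, 6 were higher in the library labelled knockdown of both lines, and 7 once transcripts under 300 nt were left out. Of the 9 cytosolic genes with a window but without the letters, 4 (EPRS, QARS, SARS and WARS) were higher in both lines and 3 (FARSA, KARS and RARS) lower in both. The median log2 ratio was 0.50 in ARP1 and 0.61 in H929 with the letters, and -0.14 in ARP1 and 0.12 in H929 without them. The members were chosen on these same ratios, so the split is a description and nothing is read from it. A plain CCAAT box was found in 7 of 16 cytosolic and 9 of 14 mitochondrial genes, and in 39.7% of all genes.

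Among genes with the letters, AARS, the alanine enzyme (chr16:70252295-70289543, build GRCh38), had 144 FPKM in the ARP1 library labelled knockdown, against 88.2 FPKM in its control, and 86.3 FPKM in the H929 library, against 56.1 FPKM in its control. The overexpression libraries held 70.5 FPKM in ARP1 and 57.2 FPKM in H929, against 87.3 and 62.0 FPKM in their controls. In each line the library labelled knockdown was the highest of the 4 for AARS, at 1.63-fold and 1.54-fold its control.

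CARS had 80.5 FPKM in the ARP1 library labelled knockdown, against 37.6 FPKM in its control, and 35.5 FPKM in the H929 library, against 17.1 FPKM in its control. With overexpression it had 32.9 FPKM in ARP1 and 21.3 FPKM in H929, against 26.1 and 21.0 FPKM in the controls. The ratios to the knockdown control were 2.14 and 2.07, and all 3 main CARS transcripts, which code for 726, 748 and 831 residues, were higher in both libraries labelled knockdown.

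GARS, the glycine enzyme, which serves cytosol and mitochondria from the same gene, had 263 FPKM in the ARP1 library labelled knockdown, against 155 FPKM in its control, and 137 FPKM in the H929 library, against 65.5 FPKM in its control. It had 147 FPKM with overexpression in ARP1 and 81.3 FPKM in H929, against 122 and 84.3 FPKM in the controls. The ratio to the knockdown control was 1.70 in ARP1 and 2.09 in H929, the only gene of the 7 with a larger ratio than CARS in either line.

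MARS, the methionine enzyme and a member of the multisynthetase complex, had 199 FPKM in the ARP1 library labelled knockdown, against 143 FPKM in its control, and 113 FPKM in the H929 library, against 70.6 FPKM in its control. The overexpression libraries had 104 FPKM in ARP1 and 69.3 FPKM in H929, against 99.4 and 76.0 FPKM in their controls. The MARS gene overlaps DDIT3 on the opposite strand, and the sources used here do not say whether reads were counted by strand. DDIT3, a stress-response transcription factor, had 39.3 FPKM in the ARP1 library labelled knockdown, against 8.32 FPKM in its control, and 11.7 FPKM in the H929 library, against 9.51 FPKM in its control. What reads of DDIT3 add to MARS was not tested.

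NARS, the asparagine enzyme, had 151 FPKM in the ARP1 library labelled knockdown, against 107 FPKM in its control, and 87.7 FPKM in the H929 library, against 65.8 FPKM in its control. Its overexpression libraries had 105 FPKM in ARP1 and 74.2 FPKM in H929, against 110.1 and 71.4 FPKM in the controls. In ARP1 the 3 other libraries lay between 105 and 110.1 FPKM, all below the labelled knockdown. IARS, the isoleucine enzyme of the complex, had 159 FPKM in the ARP1 library labelled knockdown, against 129 FPKM in its control, and 116 FPKM in the H929 library, against 80.5 FPKM in its control.

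**Figure D2:**
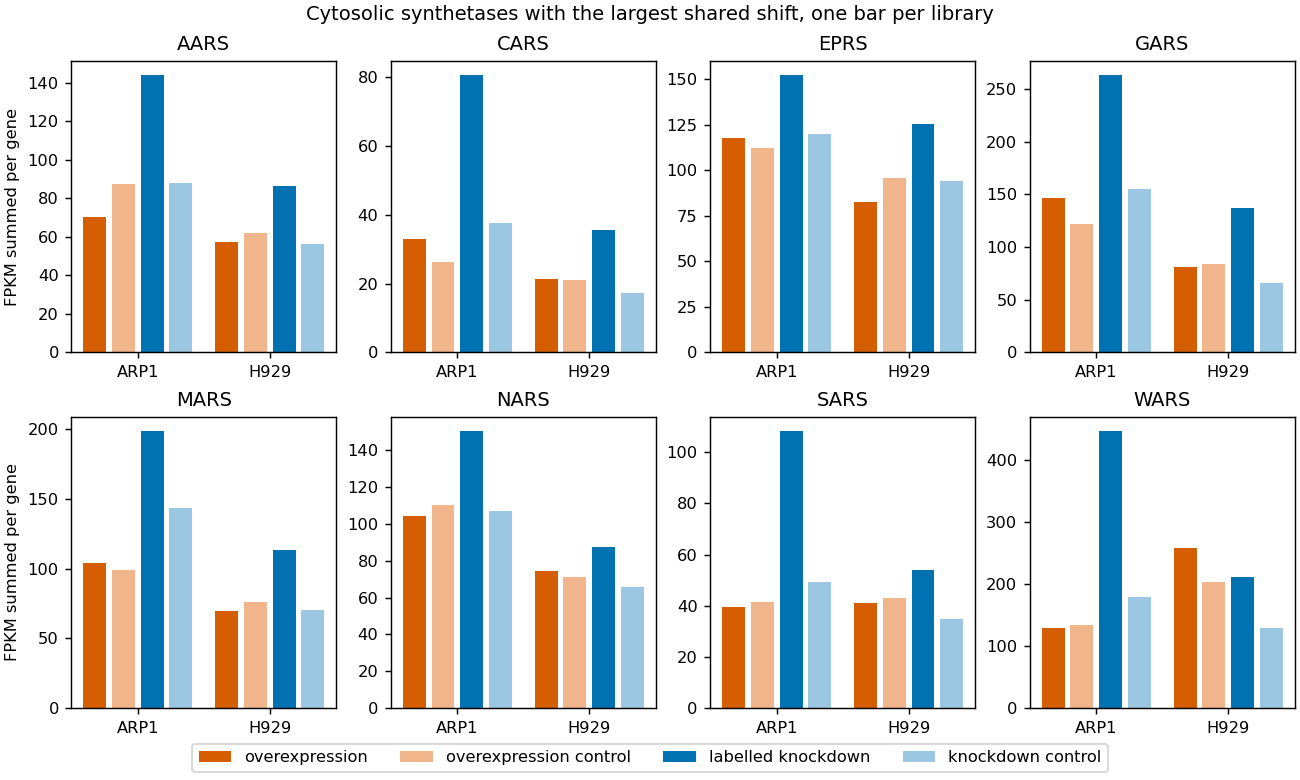
FPKM summed per gene (y axis, from 0) in each of the 8 libraries, 1 bar per library, ARP1 on the left and H929 on the right of each panel. Shown are the 8 cytosolic synthetases with the largest shift shared by both lines when all transcripts are summed. By that sum TARS is left out, through its short transcript in the H929 knockdown control. In all 8 genes the library labelled knockdown (dark blue) is above its control (light blue), and in 7 of them it is the highest of its line in both lines. WARS is the exception, with 211 FPKM in the H929 library labelled knockdown and 259 FPKM in the H929 overexpression library.

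Outside the group with the letters, EPRS, which joins the glutamate and proline enzymes in 1 protein of the complex, had 152 FPKM in the ARP1 library labelled knockdown, against 120.2 FPKM in its control, and 126 FPKM in the H929 library, against 94.3 FPKM in its control. With overexpression it had 118 FPKM in ARP1 and 82.4 FPKM in H929, against 112 and 95.9 FPKM in the controls. The shift of EPRS was smaller than that of AARS, CARS or GARS, at 1.27-fold and 1.33-fold.

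SARS, the serine enzyme, had 108 FPKM in the ARP1 library labelled knockdown, against 49.4 FPKM in its control, and 53.8 FPKM in the H929 library, against 34.9 FPKM in its control. With overexpression it had 39.4 FPKM in ARP1 and 41.0 FPKM in H929, against 41.7 and 43.1 FPKM in the controls. The 3 other ARP1 libraries lay between 39.4 and 49.4 FPKM, and the labelled knockdown was 2.19-fold its control. LARS, the leucine enzyme of the complex, had 155 FPKM in the ARP1 library labelled knockdown, against 102 FPKM in its control, and 94.6 FPKM in the H929 library, against 77.8 FPKM in its control. YARS, the tyrosine enzyme, had 178 FPKM in ARP1, against 161 FPKM, and 163 FPKM in H929, against 112 FPKM, so its shift was the larger in H929 and that of SARS and LARS in ARP1.

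WARS is known to be induced by interferon gamma from a start of its own. It had 448 FPKM in the ARP1 library labelled knockdown, against 179 FPKM in its control, and 211 FPKM in the H929 library, against 128 FPKM in its control. With overexpression it had 129.6 FPKM in ARP1 and 259 FPKM in H929, against 134 and 204 FPKM in the controls. The ARP1 library labelled knockdown held the highest WARS level of all, and in H929 the labelled knockdown stood near the overexpression control.

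The 32 WARS transcripts fell into 13 from an upstream start and 19 from downstream starts. The 250 bases before the upstream RefSeq start, at chr14:100376328-100376577 on the minus strand, held none of the letters TGATGNAA, TTCNNNGAA (the GAS element) or GAAA, any 2 bases and GAAA again (the ISRE, bound by interferon factors). The downstream RefSeq start is shown because it held both interferon elements, the GAS beginning at -142 and the ISRE at -55, in capitals in this order.
WARS downstream start at chr14:100375348-100375597 (minus strand): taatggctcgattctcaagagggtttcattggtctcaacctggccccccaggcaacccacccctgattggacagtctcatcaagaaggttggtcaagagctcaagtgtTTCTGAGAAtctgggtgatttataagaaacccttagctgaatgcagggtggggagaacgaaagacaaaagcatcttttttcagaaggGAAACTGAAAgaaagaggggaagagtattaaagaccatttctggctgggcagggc
GAS letters were found in 3 of 16 cytosolic and 2 of 14 mitochondrial genes, against 9.38% of all genes, and ISRE letters in 1 of 16 and 1 of 14, against 4.38%.

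Transcripts of both WARS starts were higher in the libraries labelled knockdown than in their own controls. Those of the upstream start summed to 310.0 FPKM in the ARP1 library labelled knockdown, against 139 FPKM in its control, and to 129 FPKM in the H929 library, against 86.3 FPKM in its control. Those of the downstream starts summed to 138 FPKM in ARP1, against 40.6 FPKM, and to 82.1 FPKM in H929, against 42.1 FPKM. The downstream ratios, 3.39 and 1.95, were above the upstream ones, 2.24 and 1.495. They sum over all downstream transcripts and not over those of the printed start alone. With transcripts of at least 1000 nt, 3 from each side, the downstream ratios were 3.92 and 2.21, against 1.997 and 1.44. This order held against the knockdown controls only. Over all transcripts, the overexpression controls held 76.9 FPKM (ARP1) and 102 FPKM (H929) from the upstream start. From the downstream starts they held 56.9 and 101.5 FPKM. Against these controls the upstream ratio was the larger in both lines, and the downstream sum was lower in the H929 library labelled knockdown. GBP2 in H929 aside, other listed targets of interferon gamma stood lower in the libraries labelled knockdown than in their own controls. Against the H929 overexpression control, all the targets tested stood higher in the H929 library labelled knockdown. In H929 the direction of all but GBP2 thus turned with the control. IRF1, a transcription factor, had 20.4 FPKM in the ARP1 library labelled knockdown, against 25.8 FPKM in its control, and 40.3 FPKM in the H929 library, against 41.0 FPKM in its control. PSMB9, an immunoproteasome subunit, had 133 FPKM in ARP1, against 177 FPKM, and 128 FPKM in H929, against 137 FPKM. TAP1, a peptide transporter, had 62.6 FPKM in ARP1, against 65.2 FPKM, and 50.5 FPKM in H929, against 51.7 FPKM, and GBP2, a guanylate-binding protein, had 4.51 FPKM in ARP1, against 8.77 FPKM, and 5.60 FPKM in H929, against 5.26 FPKM.

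Cytosolic genes with the smallest mean shift in the libraries labelled knockdown were DARS, FARSB, HARS and QARS. FARSB, the beta subunit of the phenylalanine enzyme, had 39.1 FPKM in the ARP1 library labelled knockdown, against 43.3 FPKM in its control, and 49.2 FPKM in the H929 library, against 45.2 FPKM in its control. DARS, the aspartate enzyme, had 56.0 FPKM in ARP1, against 42.6 FPKM, and 39.9 FPKM in H929, against 40.3 FPKM. The direction differed between the lines for both genes. With overexpression FARSB had 48.4 FPKM in ARP1 and 60.7 FPKM in H929, against 43.0 and 51.4 FPKM in the controls.

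QARS had 224 FPKM in the ARP1 library labelled knockdown, against 190.3 FPKM in its control, and 146 FPKM in the H929 library, against 143 FPKM in its control. HARS, the histidine enzyme, had 36.9 FPKM in ARP1, against 55.3 FPKM, and 51.9 FPKM in H929, against 46.8 FPKM. With overexpression QARS had 142 FPKM in ARP1 and 146 FPKM in H929, against 152 and 135 FPKM in the controls, and HARS had 60.9 and 48.2 FPKM, against 61.3 and 58.5 FPKM. In the libraries labelled knockdown HARS was thus lower in ARP1 and higher in H929, and its gene overlaps that of HARS2, its mitochondrial counterpart on the opposite strand, by 437 bp.

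FARSA, KARS and VARS, chosen after their values were seen, ran against most of the cytosolic set. RARS, taken up below, was lower in both lines as well. FARSA, the alpha subunit of the phenylalanine enzyme, had 54.0 FPKM in the ARP1 library labelled knockdown, against 102 FPKM in its control, and 77.3 FPKM in the H929 library, against 78.9 FPKM in its control. KARS had 97.7 FPKM in ARP1, against 137 FPKM, and 104 FPKM in H929, against 106 FPKM. VARS had 155 FPKM in ARP1, against 205 FPKM, and 203 FPKM in H929, against 221 FPKM. In H929 the 3 genes lay within 1.1-fold of their control.

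The cytosolic genes were also counted by subset, with no test between subsets. Of the 8 genes of the multisynthetase complex 5 were higher in both lines, and of the 12 outside it 7 were. Of 9 class I genes 7 were higher in both lines, and of 10 class II genes 4 were, with EPRS, which has domains of both classes, in neither. These counts sum all transcripts, so TARS, of class II and outside the complex, is not among the genes higher in both lines. Without transcripts under 300 nt TARS was higher in both. The complex scaffolds AIMP1, AIMP2 and EEF1E1 had 23.7, 19.5 and 22.9 FPKM in the ARP1 library labelled knockdown, against 24.0, 18.3 and 38.3 FPKM in its control. In H929 they had 21.9, 16.3 and 26.8 FPKM, against 22.7, 18.5 and 23.5 FPKM, so that none of the 3 was higher in both lines.

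RARS and TARS, the arginine and threonine enzymes, carried the largest ratios of all members, and these rested on 1 short transcript each. RARS had 47.4 FPKM in the ARP1 library labelled knockdown, against 58.3 FPKM in its control, and 49.9 FPKM in the H929 library, against 530 FPKM (529.8) in its control. TARS had 151 FPKM in the ARP1 library, against 107 FPKM, and 112 FPKM in the H929 library, against 883 FPKM. RARS-210, of 177 nt, held 476 FPKM and TARS-216, of 171 nt, held 809 FPKM in the H929 knockdown control, and both were listed at 0 in the other 7 libraries.

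Both short transcripts are annotated as protein coding, for 58 and 56 residues. Without transcripts under 300 nt the H929 log2 ratio was -0.12 for RARS, against -3.38 with them, and 0.59 for TARS, against -2.97 with them. Of the 8 member transcripts under 300 nt in the table, these 2 were the only ones above 0.1 FPKM in any library. 

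**Figure D3:**
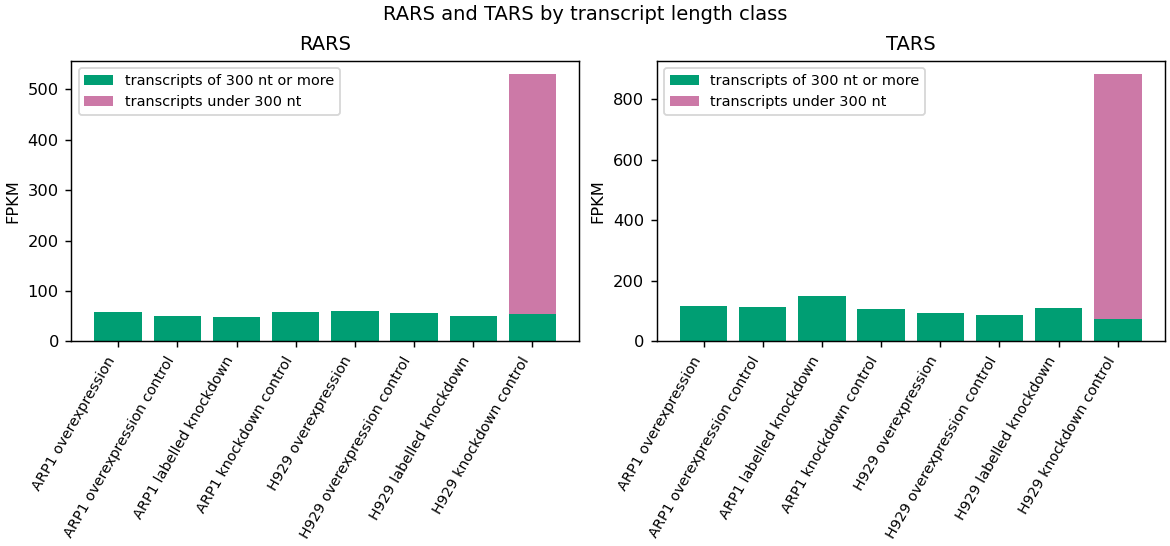
FPKM (y axis, from 0) of RARS (left) and TARS (right) in each library, stacked as transcripts of at least 300 nt (green) and transcripts under 300 nt (pink). The longer transcripts lie between 47.4 and 61.1 FPKM for RARS and between 73.8 and 151 FPKM for TARS, and the short ones appear in the H929 knockdown control alone.

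Mitochondrial synthetases with the largest shared shift were AARS2, NARS2, PARS2 and SARS2, the enzymes for alanine, asparagine, proline and serine. NARS2 had 15.7 FPKM in the ARP1 library labelled knockdown, against 28.5 FPKM in its control, and 23.1 FPKM in the H929 library, against 28.3 FPKM in its control. With overexpression it had 21.9 FPKM in ARP1 and 29.4 FPKM in H929, against 15.9 and 24.7 FPKM in the controls. In ARP1 the overexpression control held as little NARS2 as the labelled knockdown did, and 1 transcript of 594 nt, NARS2-205, held 27.0% of the gene. With transcripts of at least 1000 nt the labelled knockdown log2 ratios of NARS2 were -0.39 in ARP1 and -0.34 in H929. With all transcripts they were -0.82 and -0.28, so only that sum put NARS2 at least 1.5-fold lower in ARP1.

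AARS2 had 10.9 FPKM in the ARP1 library labelled knockdown, against 16.7 FPKM in its control, and 17.1 FPKM in the H929 library, against 19.6 FPKM in its control. SARS2 had 9.63 FPKM in ARP1, against 13.5 FPKM, and 9.30 FPKM in H929, against 10.3 FPKM. PARS2, the lowest member by level, had 3.32 FPKM in ARP1, against 2.86 FPKM, and 4.77 FPKM in H929, against 3.77 FPKM. PARS2 was the 1 mitochondrial gene on the higher side in both lines. With overexpression AARS2 had 15.8 FPKM in ARP1 and 17.2 FPKM in H929, against 17.5 and 18.0 FPKM in the controls. SARS2 had 13.5 and 8.11 FPKM with overexpression, against 12.5 and 7.25 FPKM in the controls, and PARS2 had 2.05 and 4.77 FPKM, against 2.24 and 3.30 FPKM. For AARS2 and SARS2 the ARP1 library labelled knockdown was the lowest of its line.

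Next to NARS2, LARS2, MARS2 and YARS2 were at least 1.5-fold lower in ARP1 by FPKM plus 1, with AARS2 just inside that bound at a plain ratio of 0.652. MARS2, the methionine enzyme, had 10.7 FPKM in the ARP1 library labelled knockdown, against 22.0 FPKM in its control, and 17.5 FPKM in the H929 library, against 17.7 FPKM in its control. LARS2, the leucine enzyme, had 10.1 FPKM in ARP1, against 16.4 FPKM, and 14.9 FPKM in H929, against 13.9 FPKM. YARS2, the tyrosine enzyme, had 14.8 FPKM in ARP1, against 23.1 FPKM, and 18.5 FPKM in H929, against 18.9 FPKM. In ARP1 the labelled knockdown was the lowest of the 4 libraries for each of these 3 genes, and in H929 it lay within 1.1-fold of its control.

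CARS2, TARS2 and WARS2, for cysteine, threonine and tryptophan, had the smallest mean shifts. CARS2 had 24.2 FPKM in the ARP1 library labelled knockdown, against 27.6 FPKM in its control, and 43.6 FPKM in the H929 library, against 40.4 FPKM in its control. TARS2 had 70.9 FPKM in ARP1, against 74.9 FPKM, and 46.8 FPKM in H929, against 49.9 FPKM. WARS2 had 3.42 FPKM in ARP1, against 3.73 FPKM, and 3.41 FPKM in H929, against 3.44 FPKM, and with overexpression it had 3.93 and 3.94 FPKM, against 4.19 and 3.69 FPKM. While WARS stood higher in the libraries labelled knockdown, WARS2 stayed within 1.1-fold of its control.

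Summed over transcripts of at least 300 nt, cytosolic synthetases reached 2898 FPKM in the ARP1 library labelled knockdown, against 2214 FPKM in its control, and 2057 FPKM in the H929 library, against 1612 FPKM in its control. With all transcripts the H929 control summed to 2897 FPKM, which gave an H929 fold of 0.710 in place of 1.28. The mitochondrial sum was 293 FPKM in the ARP1 library labelled knockdown, against 372 FPKM, and 335 FPKM in H929, against 349.8 FPKM. The ratio of the cytosolic to the mitochondrial sum was 9.89 in the ARP1 library labelled knockdown, against 5.95 in its control, and 6.14 in H929, against 4.61. In the overexpression libraries the ratio was 6.32 in ARP1 and 5.49 in H929, against 5.77 and 5.37 in their controls.

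**Figure D4:**
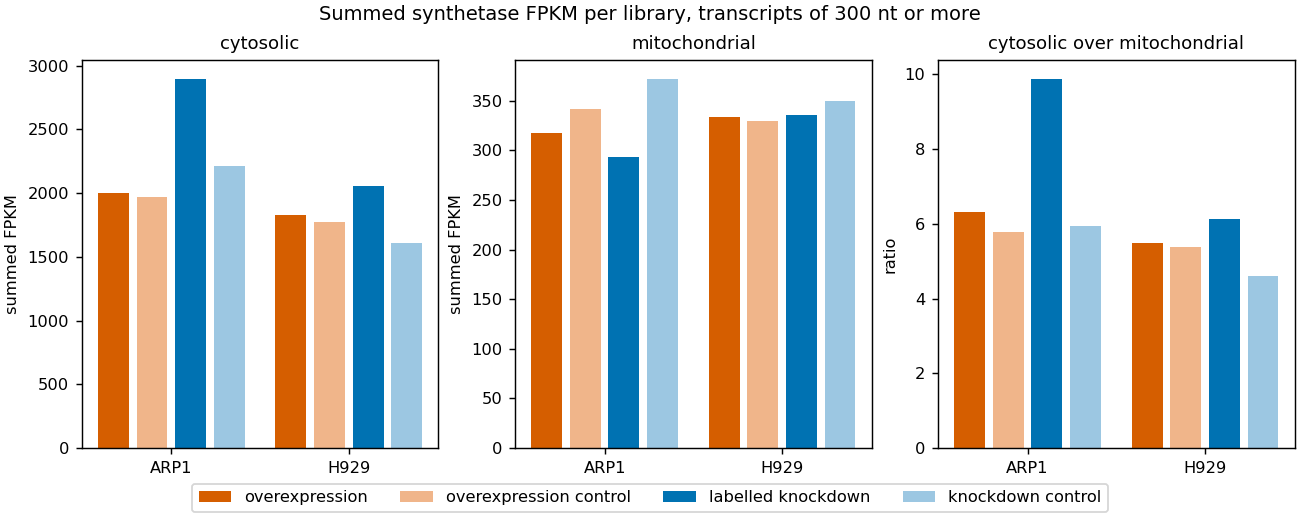
Summed FPKM of the 20 cytosolic (left) and 16 mitochondrial (middle) synthetases and the ratio of these sums (right), y axes from 0, in each library, over transcripts of at least 300 nt. The ratio is highest in the library labelled knockdown in both lines, at 9.89 in ARP1 and 6.14 in H929.

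Set against its own cytosolic counterpart, each mitochondrial gene gave 1 pair, with EPRS standing in 2 pairs and the sum of FARSA and FARSB in 1. Over transcripts of at least 300 nt the cytosolic partner was the higher in every library in 15 of 16 pairs, with median ratios up to 51.6 for WARS over WARS2. The exception was CARS over CARS2, with a median ratio of 0.854. The ratio was higher in the library labelled knockdown of both lines in 12 of 16 pairs, with a median fold of 1.71 in ARP1 and 1.47 in H929.

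The largest folds of a pair in ARP1 were for SARS over SARS2, with a ratio of 11.3 in the library labelled knockdown, against 3.66 in its control, and MARS over MARS2, with 18.6 against 6.51. In H929 the SARS ratio was 5.79 in the library labelled knockdown, against 3.38 in its control, and the MARS ratio 6.49, against 3.997. The pairs outside the 12 were those of FARSA and FARSB, HARS, RARS and VARS. In the overexpression libraries 6 of 16 pairs had a higher ratio in both lines, with a median fold of 1.12 in ARP1 and 0.953 in H929.

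With overexpression of CHEK1 all 36 synthetases stayed within 1.5-fold of the control in both lines. By limma 0 of 36 members were called, where 0.00671% of all genes tested were, and 0 members, of 663 genes in all, were under 0.05 without adjustment. The median log2 fold change was 0.04 for the cytosolic genes (11 of 20 higher), -0.01 for the mitochondrial genes (8 of 16 higher) and -0.01 for all genes tested. Over all genes tested, 4.56% were at least 1.5-fold higher and 6.91% lower in ARP1, and 3.73% higher and 5.20% lower in H929.

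The 3 genes with the largest shift shared by both lines were DARS, NARS2 and TARS2. DARS had 50.7 FPKM with overexpression in ARP1, against 38.1 FPKM in its control, and 48.7 FPKM in H929, against 39.0 FPKM in its control. Its log2 fold change was 0.36 (SE 0.16, limma adjusted p = 0.994). TARS2 had 48.6 FPKM with overexpression in ARP1, against 61.6 FPKM, and 38.5 FPKM in H929, against 44.0 FPKM, with a log2 fold change of -0.26 (SE 0.13, limma adjusted p = 0.994). The log2 fold change of NARS2, whose levels are given above, was 0.34 (SE 0.18, limma adjusted p = 0.994). With transcripts of at least 1000 nt the NARS2 log2 ratio was -0.0023 in ARP1 and 0.14 in H929, so its shift was then not shared by both lines.

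The effect of overexpression minus that of the labelled knockdown had a median log2 value of -0.36 for cytosolic and 0.08 for mitochondrial genes. By limma 0 of 36 members were called for it, against 0.0134% of all genes. This difference shares its libraries with the comparison that chose the members, so nothing is read from it. Between the controls, overexpression control minus knockdown control, the median was -0.05 for cytosolic and -0.03 for mitochondrial genes, with 0 members called against 0.0537% of all genes. The cytosolic value joins opposite directions of the lines. Its median log2 ratio was -0.23 in ARP1, with 15 of 20 genes lower, and 0.13 in H929, with 14 of 20 higher. Over all genes tested the median was -0.01 in each line.

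The controls of a line were not interchangeable, for the cytosolic set or for single genes. In ARP1 the overexpression control had 134 FPKM of WARS and 41.7 FPKM of SARS, against 179 and 49.4 FPKM in the knockdown control. In H929 it had 204 FPKM of WARS and 43.1 FPKM of SARS, against 128 and 34.9 FPKM. Set against the overexpression control in place of its own, the library labelled knockdown had a median cytosolic log2 ratio of 0.55 in ARP1 and 0.30 in H929, and WARS in H929 a ratio of 0.05. With that control 14 cytosolic genes were higher in both lines, and 9 mitochondrial genes were lower in both.

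The lines themselves differed in 10 of 36 synthetases, tested over 4 genotype pairs in a comparison that did not choose the members. Higher in ARP1 than in H929 were the cytosolic AARS, CARS, EPRS, GARS, IARS, MARS and NARS and the mitochondrial EARS2 and TARS2, and lower was CARS2. Over all genes tested 27.1% were called by limma, 13.7% higher and 13.4% lower in ARP1, so the members' share was near that of all genes. With no replicate block 5 of the 10 were called, against 21.3% of all genes. Without either knockdown control 4 were called, against 14.0% of all genes, so in these fits the members' share was below that of all genes. Of the 7 cytosolic genes with the TGATGNAA letters 6 were called higher in ARP1, and of the 9 without them 1, EPRS. Without transcripts under 300 nt, where 29.4% of all genes were called in either direction, TARS was called as well, so all 7 with the letters were. Other settings called fewer of the 7: only GARS and NARS with no replicate block, and only GARS, MARS and NARS with either knockdown control left out. IARS kept its call under 6 alternatives and lost it under 11.

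GARS had 147, 122, 263 and 155 FPKM in ARP1 in the order overexpression, its control, labelled knockdown and its control, against 81.3, 84.3, 137 and 65.5 FPKM in H929. The log2 difference, ARP1 minus H929, was 0.89 (SE 0.12, limma adjusted p = 0.00471). ARP1 was the higher line in 4 of 4 pairs, although the H929 library labelled knockdown stood above the ARP1 overexpression control.

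NARS had 105, 110.1, 151 and 107 FPKM in ARP1 in the same order, against 74.2, 71.4, 87.7 and 65.8 FPKM in H929, a log2 difference of 0.64 (SE 0.09, limma adjusted p = 0.0046). CARS2 had 28.1, 29.3, 24.2 and 27.6 FPKM in ARP1, against 43.1, 42.6, 43.6 and 40.4 FPKM in H929, a log2 difference of -0.62 (SE 0.10, limma adjusted p = 0.00664). For NARS, CARS2 and EARS2 no ARP1 library overlapped an H929 library, a separation that 27% of all genes tested showed.

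CARS differed by 0.79 (SE 0.16, limma adjusted p = 0.0151), MARS by 0.70 (SE 0.12, limma adjusted p = 0.0088) and AARS by 0.54 (SE 0.10, limma adjusted p = 0.0118) on the log2 scale. The other called genes were EARS2 with 0.52, TARS2 with 0.49, IARS with 0.39 and EPRS with 0.34, at limma adjusted p between 0.0112 and 0.0376. All 10 had the same sign in 4 of 4 pairs. CARS and CARS2, which charge the same amino acid in the separate compartments, thus differed between the lines in opposite directions.

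**Figure D5:**
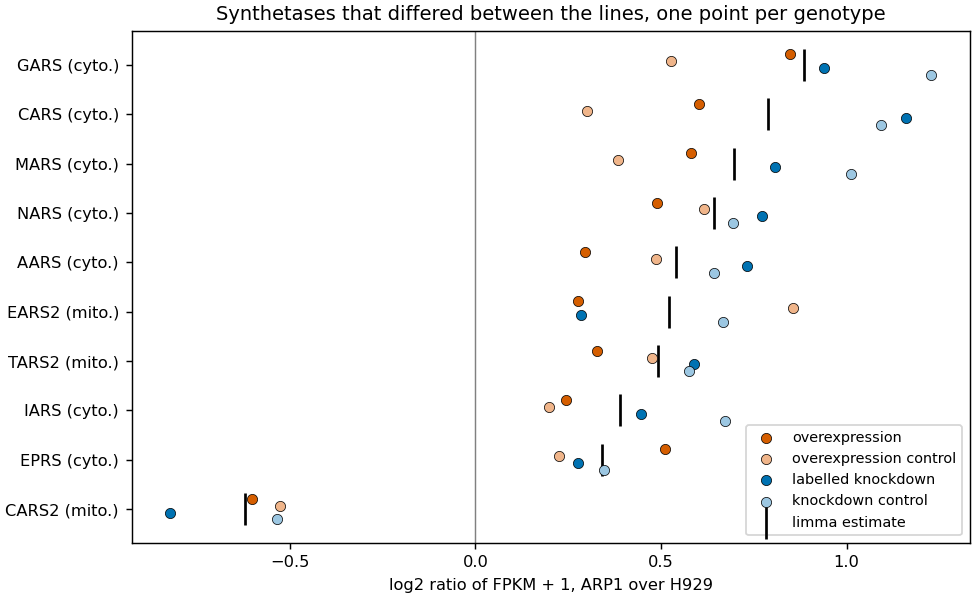
Log2 ratio of FPKM plus 1, ARP1 over H929 (x axis), for the 10 synthetases that passed the limma threshold (rows), 1 point per genotype and a bar at the limma estimate. All 4 points lie on the same side of 0 in each gene, to the left for CARS2 alone. The largest estimate is that of GARS, at 0.89.

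With the other genes of the pathway, none of the listed genes was called in the libraries labelled knockdown, and the values are given as description. ATF4 had 618 FPKM in the ARP1 library labelled knockdown, against 347 FPKM in its control, and 377 FPKM in the H929 library, against 191 FPKM in its control. Each of the 8 listed ATF4 targets was on the higher side in ARP1 and in H929, with medians of 1.69 and 1.22 on the log2 scale. CHAC1, a glutathione-degrading enzyme, had 63.9 FPKM in ARP1, against 12.4 FPKM, and 19.8 FPKM in H929, against 3.59 FPKM.

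In the overexpression libraries the 8 targets had median log2 ratios of 0.30 in ARP1 and -0.13 in H929, with 1 gene higher in both lines. Against the knockdown control in place of their own, the medians were -0.81 and -0.32, so the ARP1 sign turned with the control. Overexpression control minus knockdown control had a median of -1.17 for these targets in ARP1 and -0.15 in H929. Between the lines ATF4 was higher in ARP1 by 0.52 on the log2 scale (limma adjusted p = 0.0285), as were CHAC1 by 1.12 and SESN2, a stress-induced inhibitor of growth signalling, by 1.21 (limma adjusted p = 0.0176 and 0.021). They were the 2 of 8 targets called between the lines, near the 27.1% of all genes called in that comparison.

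XPOT, which exports tRNA from the nucleus, had 171 FPKM in the ARP1 library labelled knockdown, against 93.7 FPKM in its control, and 82.3 FPKM in the H929 library, against 59.6 FPKM in its control. POP1, a subunit of the nuclease that trims tRNA precursors, had 4.07 FPKM in ARP1, against 15.6 FPKM, and 7.47 FPKM in H929, against 9.03 FPKM. In the list of tRNA export and processing genes 2 of 10 were higher in both lines and 3 lower in both, and against the overexpression control 1 was higher and 6 were lower in both.

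Of 6 cytosolic elongation factors, which bring charged tRNA to the ribosome and move it along, 4 were higher in both lines, within 1.5-fold. Against the overexpression control in place of their own, 1 was higher and 4 were lower in both, so their direction turned with the control. Of the 4 mitochondrial elongation factors 3 were lower in both lines against either control. TSFM, the mitochondrial nucleotide exchange factor, had 45.1 FPKM in the ARP1 library labelled knockdown, against 81.1 FPKM in its control, and 49.5 FPKM in the H929 library, against 46.2 FPKM in its control. Of the 4 genes that formylate the mitochondrial initiator tRNA or amidate glutaminyl-tRNA 3 were lower in both lines, among them GATC, an amidation subunit, with 9.60 FPKM in ARP1, against 14.3 FPKM, and 9.27 FPKM in H929, against 12.8 FPKM. Against the overexpression control 2 of these 4 were lower in both lines and 1 was higher in both. Other charging and proofreading genes showed 1 of 7 higher in both lines and 1 lower in both.

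Of the 36 members, 28 overlap another annotated gene, in most cases on the opposite strand, and the sources used here do not give the strand of counting. Among coding neighbours KARS overlaps TERF2IP, YARS overlaps S100PBP, SARS2 overlaps MRPS12 and CARS2 overlaps ING1. The part of such reads in the values of these genes was not tested. EPRS and IARS2 lie head to head on chromosome 1 with 47443 bp between them, and EPRS was higher in both libraries labelled knockdown while IARS2 had ratios of 0.882 in ARP1 and 0.999 in H929.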

How the data were processed

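Per the labels' protocols, total RNA was extracted with Trizol, selected for poly(A) and sequenced as paired ends. The mouse build mm8 and the tools HISAT2 2.0, StringTie 1.3.0 and Bowtie 0.12.2 are listed in the submitters' processing notes, although the transcript identifiers are human. The authors deposited FPKM per transcript, called means in the file, and every column was matched to a library by its title. Of 88209 transcripts, 87707 were joined to GENCODE release 29 genes (GRCh38), and FPKM was summed per gene. Without a stated depth, the spread over libraries is the only measure of precision.

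Genes that reached FPKM 1 in 2 or more libraries were fitted as log2(FPKM + 1) on line and genotype in limma 3.58.1 with trended variances (3 residual degrees of freedom), two-sided, with Benjamini-Hochberg adjustment at 0.05. The replicate numbers stand for the lines, so the line (for the line contrast, the genotype) was the block, and p-values measure the spread between these libraries, which may be technical. Simulated data were used to test the fit. Promoter letters were searched in RefSeq windows. Values of all libraries are given for the 8 cytosolic and 4 mitochondrial genes with the largest shift shared by both lines in the libraries labelled knockdown, 4 and 3 with the smallest, 6 between lines and 3 in overexpression; other genes were chosen after their values were seen. Members and lists were chosen with earlier results of these data known. Gene sums without transcripts under 1000 nt were added after seeing the data. Other alternatives were the pseudocount, the filter, the scaling, the block, the control, transcript classes and each library left out. A listed gene is not reported here.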

Additional observations from a re-analysis of the deposited data

Results flagged for a closer look

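Within the 4 libraries of a line, which are of different genotypes, the highest or lowest library stood apart from the others in 11 of 72 groups of a gene and a line, by a gap that chance gives in about 1 in 20. In the ARP1 library labelled knockdown these were NARS with 151 FPKM (150.7), SARS with 108 FPKM, WARS with 448 FPKM, LARS2 with 10.1 FPKM and MARS2 with 10.7 FPKM. In the H929 library labelled knockdown they were MARS with 113 FPKM and YARS, the tyrosine enzyme, with 163 FPKM. In the H929 overexpression library they were DARS with 48.7 FPKM and MARS2 with 21.3 FPKM. In the H929 knockdown control they were RARS with 530 FPKM (529.8) and TARS with 883 FPKM. There the short transcripts RARS-210 and TARS-216 held 476 and 809 FPKM and were listed at 0 elsewhere. The 1 in 20 holds for 4 like libraries, while here each library was of another genotype. No share over all genes stands beside the count, and the ratios of the libraries labelled knockdown chose the members. Nothing is therefore read from the 11 of 72.

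TARS moved in opposite directions in the lines, with a log2 ratio of the labelled knockdown over its control of 0.50 in ARP1 and -2.97 in H929, and the difference was not tested. Without transcripts under 300 nt the H929 ratio was 0.59.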

How the results depend on the processing

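For the libraries labelled knockdown the median cytosolic log2 fold change of 0.36 was 0.38 (0.3763) with median-ratio scaling, 0.38 (0.3823) with scaling to the same sum, 0.39 (0.3943) against the other control of each line, 0.40 (0.4019) with both controls pooled and 0.39 (0.3921) without transcripts under 300 nt. For overexpression the cytosolic median of 0.04 was 0.0242 with scaling to the same sum, -0.0253 against the other control, -0.043 with both controls pooled and 0.0669 with transcripts of at least 1000 nt, the mitochondrial median was -0.14 against the other control, and NARS2 turned to -0.16 there. The mitochondrial median of overexpression minus labelled knockdown was 0.16 with FPKM of at least 5, 0.05 (0.0546) with scaling to the same sum and 0.05 (0.0536) with transcripts of at least 1000 nt, and that of overexpression control minus knockdown control was -0.0032 with scaling to the same sum. The cause of these shifts was not tested.

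With no replicate block, 5 members were called between the lines in place of 10 (CARS2, EARS2, GARS, NARS and TARS2), with 21.3% of all genes called. With a library left out 4 to 12 were called, where 13.2% to 28.3% of all genes were. The count was 4 without either knockdown control (14.0% of all genes) and 5 without either overexpression control (13.2%). CARS2, GARS and NARS were called under all 17 alternatives. With a library left out the cytosolic and mitochondrial medians ranged from 0.20 to 0.30 and from -0.15 to 0.09 between lines, from 0.23 to 0.43 and -0.34 to -0.04 in the labelled knockdown, from -0.0946 to 0.0873 and -0.12 to 0.06 in overexpression, from -0.48 to -0.23 and 0.0118 to 0.26 for overexpression minus labelled knockdown, and from -0.23 to 0.10 and -0.18 to 0.0923 between the controls. Members called numbered 0 to 5 in the labelled knockdown (5 without the H929 library labelled knockdown, where calls over all genes were 1005 of 14735 in place of 2 of 14905, and 2, RARS and TARS, without the ARP1 knockdown control), 0 to 0 in overexpression, and 0 to 2 in each of the other 2 contrasts (RARS and TARS, without the ARP1 knockdown control). Where a group was left with 1 library, that library was assumed to vary like the others. The depth behind the FPKM is unknown, so counting error of low genes such as PARS2 and WARS2 could not be set beside their differences.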
